A study of Homo sapiens with 6 samples.

Results

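The genes of cellular iron uptake, storage and export were followed in MHCC97H cells, a human hepatocellular carcinoma line with high metastatic potential, in a comparison of cells resistant to the multikinase inhibitor sorafenib with sensitive control cells of the same line. The 10 genes, SLC40A1, TFRC, FTH1, FTL, SLC11A2, TF, IREB2, ACO1, NCOA4 and HAMP, are 10 of the 19202 genes in the deposited count table and were found there by symbol. They were chosen from the iron pathway with earlier results of this comparison known, among them the resistant-to-control fold change of SLC40A1. The difference of SLC40A1 is therefore given as a description with no p-value, and the calls of the other 9 describe where each gene stood in the fit over all genes. The labels give 3 libraries of MHCC97H control cells, described as sorafenib sensitive, and 3 of MHCC97H SR cells, described as sorafenib resistant. Sorafenib dose, length of exposure, the way the resistant cells were derived, whether they are 1 clone and whether replicates were separate cultures are not given in the labels used here. The p-values rest on the spread between libraries, and that spread may be technical.

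Iron enters most cells as transferrin-bound iron through the transferrin receptor, is reduced in the endosome and leaves it through a divalent metal transporter. Surplus iron is stored inside the ferritin shell and can be released when ferritin is delivered to lysosomes, and it leaves the cell through ferroportin, the protein of SLC40A1, which the liver hormone hepcidin removes from the surface. In iron-poor cells, iron regulatory proteins bind hairpins called iron-responsive elements, blocking translation where the hairpin lies before the coding sequence and stabilising the mRNA where it lies after it. Redox-active iron feeds the lipid peroxidation of ferroptosis, a form of cell death that sorafenib has been reported to provoke in liver cancer cells.

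Hairpins of some members can be read in the reference transcripts of GENCODE 29. Among the members listed below, they lie before the coding sequence in FTH1, FTL and SLC40A1 and after it in TFRC. Their place does not show what else controls the mRNA level of these genes. Each line gives 1 element 5′ to 3′ in DNA letters, and capitals mark the 6-base loop:
FTH1 (before the coding sequence): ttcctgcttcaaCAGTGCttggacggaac
FTL (before the coding sequence): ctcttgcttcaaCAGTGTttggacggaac
SLC40A1 (before the coding sequence): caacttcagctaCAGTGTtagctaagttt
TFRC (after the coding sequence, element 1 of 4): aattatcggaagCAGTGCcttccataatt
TFRC (after the coding sequence, element 2 of 4): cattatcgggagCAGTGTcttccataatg
TFRC (after the coding sequence, element 3 of 4): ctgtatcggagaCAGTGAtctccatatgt
TFRC (after the coding sequence, element 4 of 4): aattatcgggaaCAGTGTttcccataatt

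The search took the letters CAGTGN on the transcript strand, flanked on each side by 5 bases that pair with each other (G with T allowed), with a C just before the stem. These letters stood in an untranslated region of at least 1 coding transcript of 193 of 19105 genes (1.01%) and of 5 of the 10 members. FTH1 carried them before the coding sequence in 9 of 10 coding transcripts, FTL in its only one, and SLC40A1 in 1 of 5. TFRC carried 4 different versions after the coding sequence in 3 of 5 coding transcripts. The fifth member was TF, with a match in a single long transcript. ACO1, IREB2, NCOA4, HAMP and all 25 coding transcripts of SLC11A2 had no match, which says only that these exact letters were not there. An element with other letters or an interrupted stem would have been missed, so these members cannot be said to lack one. Likewise, the 4 TFRC elements are those the search found and may not be all. The counts are per gene, so transcripts with and without the element could not be separated.

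Library totals ran from 1913469 to 5345272 counts. Levels are CPM, counts per 1000000 library counts after TMM scaling, and a log2 fold change (log2FC) above 0 is higher in resistant cells. Tests are edgeR's, with a call at an adjusted p under 0.05. Of the liver lineage markers, KRT8 (1276 and 1099 CPM in control and resistant cells), KRT18 (810 and 758 CPM) and HNF4A (39.8 and 41.4 CPM) were present, while ALB was low (17.3 and 5.53 CPM) and APOA1 and TTR were under 1 CPM, with APOA2 at 0. Macrophages also express ferroportin: their 10 markers summed to 7.71 to 11.4 CPM in control and 7.37 to 14.3 CPM in resistant libraries, led by PTPRC at 2.63 ± 0.655 and 4.75 ± 0.579 CPM (SD, n = 3 each). The 9 erythroid markers summed to 1.32 to 27.8 CPM in control and 0.409 to 1.41 CPM in resistant libraries. This rested on HBB, a globin gene, at 22.6 and 18.5 CPM in control replicates 1 and 3 against 0.377 CPM in control replicate 2 and at most 0.470 CPM in the resistant libraries, while ALAS2, KLF1 and AHSP were at 0 throughout. SLC40A1 had 98.7, 114 and 124 CPM in control replicates 1 to 3. The 9 fibroblast markers, led by LUM (13.4 ± 6.19 and 7.73 ± 3.61 CPM), summed to 20.1 to 42.0 CPM in control and 19.3 to 64.6 CPM in resistant libraries, and 1 was called higher. The 6 endothelial markers, led by KDR (25.8 ± 9.11 and 37.1 ± 4.91 CPM), summed to 51.9 to 71.0 and 40.9 to 133 CPM, and the part of any of these cell types in the results was not tested.

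Ferritin light chain was by far the most abundant of these transcripts. Divided by exon length and rescaled to the same sum in every library, the levels in control cells were ordered FTL (27812 ± 1679), FTH1 (1123 ± 134), TFRC (356 ± 3.88), NCOA4 (148 ± 18.1), SLC40A1 (91.9 ± 9.28), IREB2 (48.3 ± 0.851), ACO1 (40.3 ± 2.91), SLC11A2 (26.5 ± 4.59), TF (3.69 ± 0.710) and HAMP (1.07 ± 1.004; SD, n = 3 each). No library of a gene overlapped those of its neighbour in this order. In resistant cells SLC40A1 stood at 30.4 ± 2.48 and moved from place 5 to place 8, where its libraries overlapped those of ACO1 (32.5 ± 4.32), which in turn overlapped SLC11A2 (33.9 ± 3.76). TF and HAMP also overlapped there. The order depended on the length used. With the longest transcript as the length, SLC11A2 (48.2 ± 8.40) stood above ACO1 (31.8 ± 2.32) in control cells. SLC40A1 then took place 7 in resistant cells. FTL exceeded FTH1 24.9-fold in control and 25.7-fold in resistant libraries, but 15.1-fold and 15.5-fold with the longest transcript as the length, and 11.3-fold and 11.6-fold with the coding sequence. These folds also depend on how reads shared with the 25 pseudogenes named after FTH1 and the 16 after FTL were counted, which is uncertain. The exon length of TF, 26199 bases, holds long retained introns, and with its coding length TF reached 15.4 ± 2.98 in control and 9.67 ± 3.21 in resistant cells.

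**Figure D1:**
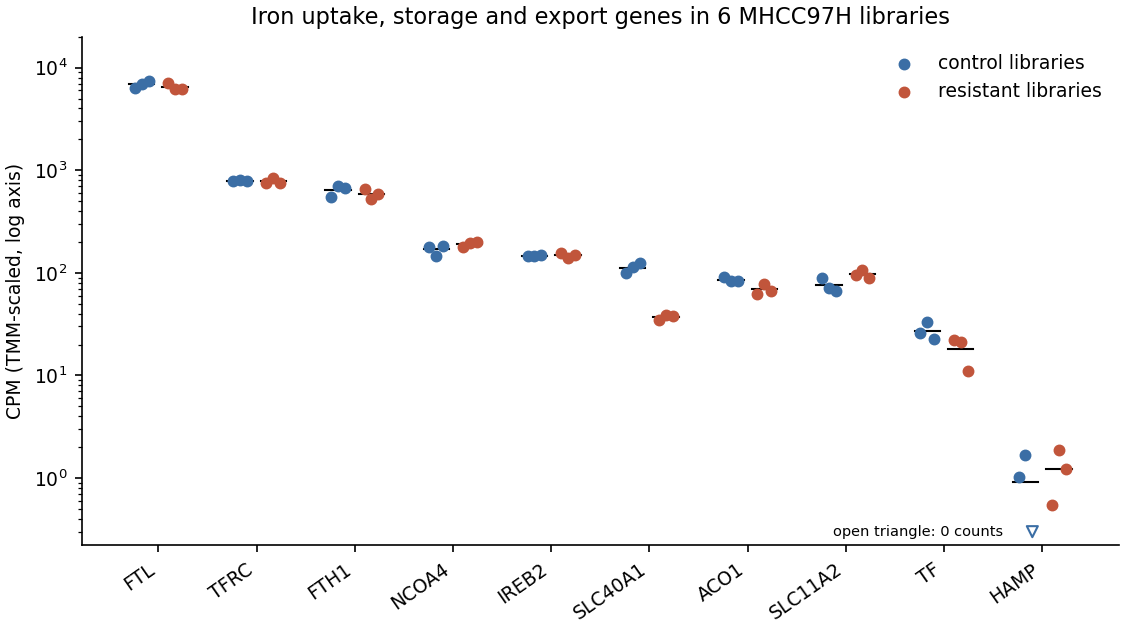
CPM of the 10 genes in each of the 6 libraries on a log axis, not divided by length; points are libraries, bars are means of 3, and the open triangle is a library with 0 counts. SLC40A1 is the gene whose resistant libraries (34.6 to 39.0 CPM) lie far below its control libraries (98.7 to 124 CPM).

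SLC40A1 encodes ferroportin, the only known exporter of free iron from mammalian cells. It had 98.7, 114 and 124 CPM in control replicates 1 to 3, and 34.6, 39.0 and 37.6 CPM in resistant replicates 1 to 3. All resistant libraries were low and close together, far below the lowest control. The means were 112 ± 12.5 and 37.1 ± 2.24 CPM (SD, n = 3 each), so resistant cells held 33.1% of the control level, a 3.02-fold decrease. This is a log2FC of -1.60 (standard error, SE, 0.14; 95% interval -1.89 to -1.32). It rested on 1220 control and 478 resistant counts, and ranged from -1.68 to -1.52 over 16 alternatives. Of the 10804 genes tested, 125, with SLC40A1 itself included, were as far down or further. The fold change, interval and rank describe a gene chosen with this difference known, and are not a test of it.

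Among the uptake genes, SLC11A2 was called higher and neither TFRC nor TF was called. TFRC, the transferrin receptor, had 786, 799 and 787 CPM in the control and 747, 838 and 759 CPM in the resistant libraries. The groups overlapped, and the 95% interval of the log2FC ran from -0.19 to 0.15 (-0.02, SE 0.08; edgeR quasi-likelihood test, adjusted p = 0.903). SLC11A2, the divalent metal transporter that carries iron out of endosomes, had 89.5, 70.4 and 66.9 CPM in control and 95.01, 106 and 88.8 CPM in resistant libraries. Its log2FC was 0.37 (SE 0.13, edgeR adjusted p = 0.0361), although control replicate 1 lay above resistant replicate 3. The call was lost with library totals (edgeR adjusted p = 0.0518) and in DESeq2 (0.055). In edgeR it did not survive the loss of control replicate 2 (0.14) or 3 (0.16), or of resistant replicate 1 (0.0507) or 2 (0.165), and over all alternatives the adjusted p ran from 0.0111 to 0.165.

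TF, the plasma iron carrier that hepatocytes secrete, had 25.7, 33.1 and 22.9 CPM in control and 22.2, 21.2 and 11.0 CPM in resistant libraries. Every resistant library lay below every control, but narrowly, and TF was not called (log2FC -0.62, SE 0.25, edgeR adjusted p = 0.063). It passed with limma-voom (0.0228), a replicate block (0.046), halved counts (0.0352) and without resistant replicate 1 (0.0424), in a range over alternatives of 0.0228 to 0.386. On leaving out 1 library its log2FC ran from -0.34 without resistant replicate 3 (-0.43 without control replicate 2) to -0.77 without resistant replicate 1. Part of the TF span in GENCODE 29 shares exons with SRPRB on the same strand, so reads could be assigned to either. SRPRB had 61.6 to 77.1 CPM in control and 76.5 to 84.4 CPM in resistant libraries. Some other secreted hepatocyte products were lower alongside: of 8 tested liver markers 3 were called lower, beside 12.3% of all tested genes. These were ALB (17.3 to 5.53 CPM), APOB (23.2 to 8.08 CPM) and SERPINA1 (8.03 to 2.98 CPM). The secreted products FGB (log2FC -0.75, edgeR adjusted p = 0.171) and AFP (log2FC 0.24, edgeR adjusted p = 0.826) were not called. The part of these secreted products in the levels of TF and of CP, below, was not tested.

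Neither ferritin chain was called. FTL, the light chain that supports mineral formation in the ferritin shell, had 6389, 6884 and 7363 CPM in control and 7157, 6168 and 6144 CPM in resistant libraries. The log2FC was -0.08 (SE 0.08), with a 95% interval of -0.24 to 0.07 (edgeR adjusted p = 0.464). FTH1, the heavy chain that oxidises iron as it enters the shell, had 549, 708 and 672 CPM in control and 649.9, 525 and 583 CPM in resistant libraries. Its log2FC was -0.14 (SE 0.10), with an interval of -0.33 to 0.05 (edgeR adjusted p = 0.318). The groups overlapped for both chains. GENCODE 29 names 25 pseudogenes after FTH1 and 16 after FTL, none of them in the count table, so how their reads were counted is uncertain. FTH1 also shares exon bases with BEST1 on the opposite strand, which had at most 19.4 CPM.

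NCOA4, the receptor that delivers ferritin to lysosomes, had 179, 146 and 182 CPM in control and 178, 196 and 198 CPM in resistant libraries. The groups overlapped (log2FC 0.18, SE 0.11, interval -0.03 to 0.40, edgeR adjusted p = 0.23). FTH1, FTL and SLC40A1, which share the element before the coding sequence shown above, thus had log2FC of -0.14, -0.08 and -1.60.

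The iron regulatory proteins showed no called difference. IREB2, encoding iron regulatory protein 2, had 145, 145 and 151 CPM in control and 155, 141 and 151 CPM in resistant libraries, and the groups overlapped (log2FC 0.02, SE 0.11, interval -0.20 to 0.23, edgeR adjusted p = 0.924). ACO1, encoding the cytosolic aconitase that acts as iron regulatory protein 1 when it lacks its iron-sulfur cluster, had 91.5, 82.5 and 82.7 CPM in control and 62.8, 77.6 and 67.1 CPM in resistant libraries. The ACO1 groups did not overlap, but the gene was not called (log2FC -0.30, SE 0.13, interval -0.57 to -0.03, edgeR adjusted p = 0.103), nor in any of 16 alternatives (0.0756 to 0.407). HAMP, encoding hepcidin, was close to undetected, with 11 counts in all 3 control and 16 in all 3 resistant libraries. It did not pass the filter on low counts. Its levels were 1.03, 1.69 and 0 CPM in control, where 0 counts allow up to 0.880 CPM, and 0.541, 1.88 and 1.23 CPM in resistant libraries.

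**Figure D2:**
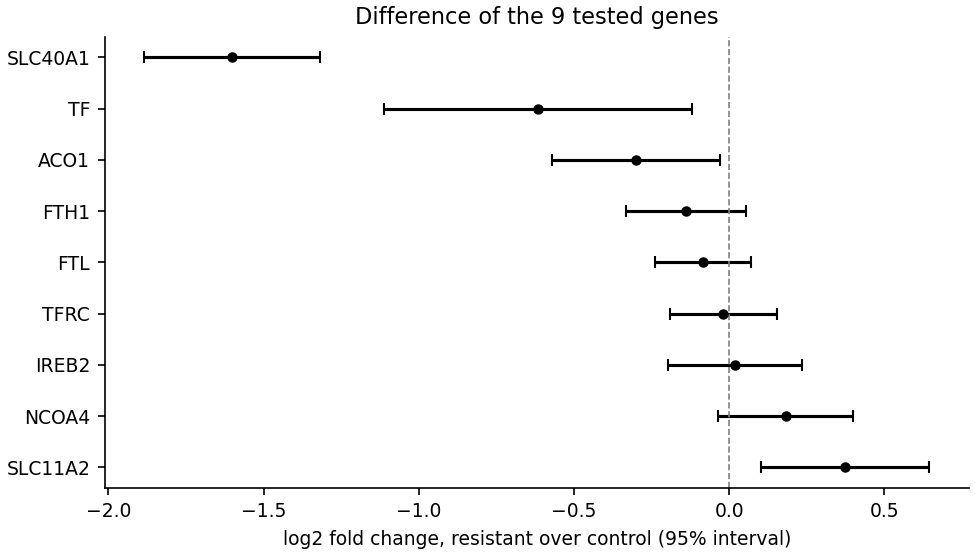
log2FC of the 9 tested genes, resistant over control, with 95% intervals from the edgeR fit (3 libraries per group). SLC40A1 lies at -1.60, SLC11A2 at 0.37 is the only one called higher, and the intervals of FTH1, FTL, TFRC, IREB2 and NCOA4 cross 0.

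SLC40A1, whose difference was known when the members were chosen, is left out of the count of calls. The other members were also chosen with earlier results of this comparison known, so their calls are a description. Of the other 8 tested members 1 was called higher (SLC11A2) and 0 lower in edgeR, beside 24.1% of all tested genes called, 11.7% higher and 12.3% lower. By the unadjusted edgeR p at the same threshold, 2 of them (TF and ACO1) were lower and 1 (SLC11A2) higher. At that threshold 3792 of all 10804 tested genes passed in either direction. Of the same 8 members limma-voom called 1 (TF) and DESeq2 0 lower. The groups did not overlap for 3 members (SLC40A1, TF and ACO1), beside 38.1% of all tested genes. The median log2FC of the 9 was -0.08, beside -0.01 for all tested genes.

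Ratios of raw counts within a library need no scaling between libraries. For every 100 TFRC counts there were 12.6, 14.3 and 15.7 SLC40A1 counts in control replicates 1 to 3, and 4.64, 4.66 and 4.96 in resistant replicates 1 to 3. The ratio of exporter to receptor thus stood at 14.2 ± 1.57 in control and 4.75 ± 0.181 in resistant libraries (SD, n = 3 each). With TFRC not called, this ratio restates the SLC40A1 difference, which was known when the members were chosen, and is not a test of it. SLC11A2 stood at 8.49 to 11.4 per 100 TFRC counts in control and 11.7 to 12.7 in resistant libraries, without overlap. By CPM the SLC11A2 groups did overlap, while 38.1% of all tested genes had groups without overlap. The share of gene pairs whose ratios separate was not computed. The chains of ferritin kept overlapping proportions, with 8.59 to 10.3 FTH1 counts per 100 FTL counts in control and 8.51 to 9.49 in resistant libraries. For IREB2 against ACO1 the groups met almost exactly at 182 per 100, with means of 172 ± 12.4 and 218 ± 33.1.

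**Figure D3:**
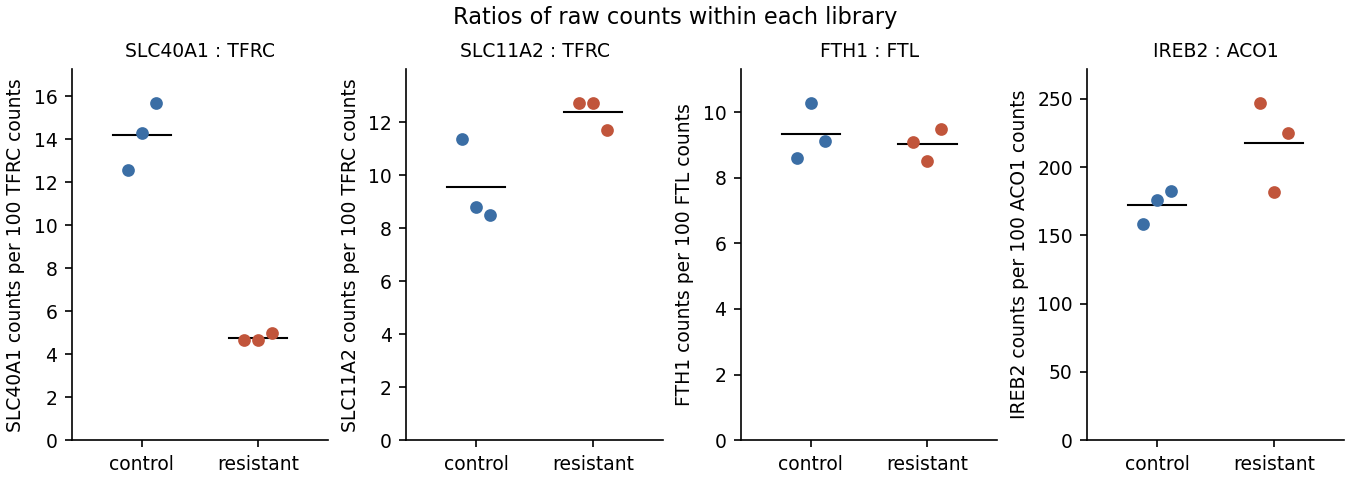
Ratios of raw counts within each library, from 0, for 4 pairs of genes; points are libraries and bars are means of 3. SLC40A1, chosen with its difference known, falls into 2 separate groups per 100 TFRC counts (12.6 to 15.7 and 4.64 to 4.96). FTH1 per 100 FTL counts overlaps.

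Beyond the 10 genes, 8 lists of other iron genes grouped by function held 112 genes, of which 107 were found in the table and 90 were tested, and the others are not analysed here. Of these 10 were called higher and 18 lower (31.1%, beside 24.1% of all tested genes), with a median log2FC of -0.04. No called gene of these lists was 2-fold higher and 5 were at least 2-fold lower: CP, ALAD, STEAP2, LRP1 and STEAP1. Among all 10804 tested genes, 175 were called at least 2-fold higher and 358 at least 2-fold lower. The lists were grouped by function but chosen with earlier results of these data known, so their calls and p-values are descriptions.

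Of the export and ferroxidase list 3 of 4 tested genes were lower and none higher, a share called of 75.0% beside 24.1% of all tested genes. CP, ceruloplasmin, the secreted ferroxidase that oxidises iron released by ferroportin, fell further than SLC40A1. It had 247, 225 and 254 CPM in control and 61.4, 65.4 and 70.2 CPM in resistant libraries (log2FC -1.88, SE 0.11, edgeR adjusted p = 2.79e-16). The control libraries were all over 3 times the highest resistant one. The haem exporters ABCG2, also a drug efflux pump, and FLVCR1 fell from 139 ± 14.8 to 98.6 ± 13.5 CPM and from 50.6 ± 3.805 to 33.8 ± 4.09 CPM. FLVCR1 was no longer called without resistant replicate 3 (edgeR adjusted p = 0.0661). FLVCR2 was not called (5.67 ± 2.83 and 3.16 ± 1.87 CPM). The other ferroxidase genes, HEPH and HEPHL1, averaged under 2 CPM in both groups and were not tested.

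In the transferrin route 3 of 8 tested genes were higher and 3 lower (all tested genes: 11.7% and 12.3%). The lower genes were all of the STEAP family of metalloreductases. STEAP3, the main endosomal ferrireductase of erythroid cells, had 61.7, 56.7 and 53.7 CPM in control and 31.7, 34.3 and 37.4 CPM in resistant libraries (log2FC -0.72, SE 0.16, edgeR adjusted p = 0.000807). STEAP2 fell from 90.3 ± 9.02 to 35.5 ± 3.22 CPM (log2FC -1.33, SE 0.15) and STEAP1, which resembles them but lacks their NADPH-binding domain, from 91.3 ± 24.2 to 36.2 ± 5.39 CPM (log2FC -1.33, SE 0.17). No library of the groups overlapped for any of these STEAP genes. The higher genes were trafficking factors: VPS35, a retromer subunit that returns cargo from endosomes, rose from 229.6 ± 3.53 to 306 ± 7.42 CPM (log2FC 0.41, SE 0.09). The motor MYO5B (log2FC 0.63) and the exocyst subunit EXOC6 (0.53) also rose, and are named after their values were seen. MYO5B was no longer called without both control replicate 1 and resistant replicate 3 (log2FC 0.39, edgeR adjusted p = 0.105). EXOC6 was no longer called without control replicate 3 (edgeR adjusted p = 0.0685), resistant replicate 2 (0.0633) or resistant replicate 3 (0.0945). SNX3, which sorts the transferrin receptor for recycling, was not called (72.8 ± 14.3 and 75.7 ± 11.5 CPM).

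Among 5 tested genes of uptake without transferrin, 1 was higher and 1 lower (40.0% called, beside 24.1% of all tested genes). LRP1, an endocytic receptor that takes up haem bound to hemopexin among many ligands, fell from 341 ± 16.6 to 135 ± 20.5 CPM (log2FC -1.33, SE 0.11). PRNP, the prion protein gene, described as a ferrireductase, rose from 332 ± 26.9 to 497 ± 41.7 CPM (log2FC 0.58, SE 0.09). SLC39A14, a hepatocyte importer of iron not bound to transferrin, had 181 to 208 CPM in control and 218 to 246 CPM in resistant libraries. It was not called (log2FC 0.25, SE 0.10, edgeR adjusted p = 0.0654), and passed without resistant replicate 1 (0.036).

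Of 5 tested storage and iron chaperone genes, 1 was higher and 1 lower (40.0% called, beside 24.1%). GLRX3, a glutaredoxin that handles cytosolic iron-sulfur clusters, rose from 116 ± 17.4 to 216 ± 14.1 CPM (log2FC 0.87, SE 0.11). HERC2, a ubiquitin ligase reported to turn over NCOA4, fell from 137 ± 6.21 to 106 ± 16.9 CPM (log2FC -0.37, SE 0.12). The HERC2 call did not hold without control replicate 2 (edgeR adjusted p = 0.0628), control replicate 3 (0.0854) or resistant replicate 1 (0.166), where the log2FC was -0.24. TAX1BP1, an autophagy receptor that takes part in ferritin turnover, was not called (363 ± 21.8 and 369 ± 41.9 CPM).

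Of 16 tested genes upstream of hepcidin, 5 were lower and none higher, with a median log2FC of -0.18. The share called, 31.2% and all of it lower, stood beside 12.3% of all tested genes called lower and 24.1% called in either direction. FURIN, the protease that processes prohepcidin, fell from 127 ± 5.94 to 74.3 ± 8.70 CPM (log2FC -0.77, SE 0.12), and STAT3, the factor that carries the interleukin-6 signal to hepcidin, from 134 ± 6.22 to 96.3 ± 7.44 CPM. NEO1, which binds the coreceptor hemojuvelin, fell from 58.0 ± 11.3 to 36.5 ± 4.48 CPM, and BMP6, the ligand that reports iron load to hepatocytes, from 73.7 ± 8.58 to 53.0 ± 7.26 CPM. The inhibitory SMAD6 was lower too (log2FC -0.85), and is named after its value was seen. BMP6 was no longer called without control replicate 3 (edgeR adjusted p = 0.113), resistant replicate 1 (0.0532) or resistant replicate 2 (0.0941). SMAD6 lost it without control replicate 1 (0.163) or 2 (0.098), or resistant replicate 2 (0.091) or 3 (0.11). ID1, a target of BMP signalling, was not called (201 ± 4.37 and 196 ± 9.97 CPM). HAMP itself was near the detection limit in both groups.

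Of 8 tested genes for the control of iron regulatory proteins and for other transcripts described with an iron-responsive element, 2 were higher and 1 lower (37.5% called, beside 24.1% of all tested genes). CDC42BPA, a kinase, fell from 199 ± 20.8 to 135 ± 11.7 CPM. PFN2, a profilin, rose from 135 ± 9.95 to 175 ± 9.72 CPM, and EPAS1, which encodes the hypoxia factor HIF-2 alpha, from 329 ± 38.1 to 408 ± 30.9 CPM. PFN2 was no longer called without resistant replicate 3 (edgeR adjusted p = 0.0551). EPAS1 lost it without control replicate 1 (0.0941) or 3 (0.0803), or resistant replicate 2 (0.067) or 3 (0.0802). CUL1, a scaffold of the ligase that degrades IREB2 protein, was not called (110.3 ± 3.998 and 122 ± 4.43 CPM). FBXL5, the iron-sensing subunit of that ligase, had 25.3 ± 5.09 and 25.2 ± 5.64 CPM.

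Mitochondrial iron and iron-sulfur cluster genes were mostly not called: 2 of 29 were higher and none lower (6.90%, beside 24.1% of all tested genes), with a median log2FC of 0.06. HSPA9, a mitochondrial chaperone with a part in cluster transfer, rose from 925 ± 101 to 1139 ± 68.3 CPM, and MMS19, which delivers clusters to DNA enzymes, from 55.4 ± 5.98 to 74.0 ± 6.31 CPM. HSPA9 was no longer called without control replicate 1 (edgeR adjusted p = 0.0664). MMS19 lost it without control replicate 2 (0.0891) or 3 (0.0934), or resistant replicate 1 (0.0653) or 3 (0.0903). CIAO1, of the cytosolic cluster targeting complex, was not called (100.2 ± 14.6 and 110.3 ± 4.78 CPM).

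Of 15 tested haem genes 4 were lower and 1 higher, a share called of 33.3% beside 24.1% of all tested genes. ALAD, the second enzyme of haem synthesis, fell from 12.6 ± 5.65 to 3.85 ± 1.24 CPM (log2FC -1.73, SE 0.41), and ALAS1, the rate-limiting one in liver, from 100.1 ± 12.6 to 72.6 ± 12.3 CPM (log2FC -0.46, SE 0.14). BACH1, the haem-sensing repressor of HMOX1 and ferritin genes, fell from 136 ± 11.3 to 95.9 ± 5.61 CPM (log2FC -0.50, SE 0.12). HMOX1, haem oxygenase 1, which releases iron from haem, was lower as well, at 652 to 775 CPM in control and 573 to 597 CPM in resistant libraries (log2FC -0.29, SE 0.09), and is named after its value was seen. BLVRB, a biliverdin reductase of the next step, rose from 164 ± 11.6 to 217 ± 34.7 CPM. In edgeR's quasi-likelihood test ALAD was no longer called without control replicate 3 (adjusted p = 0.055), ALAS1 without control replicate 3 (0.133) or resistant replicate 2 (0.126), and BLVRB without resistant replicate 1 (0.0897). HMOX1 lost it without control replicate 2 (0.0895), control replicate 3 (0.0657) or resistant replicate 3 (0.0764). PGRMC1, a haem-binding membrane protein, was not called (116 ± 7.51 and 106 ± 3.14 CPM).

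**Figure D4:**
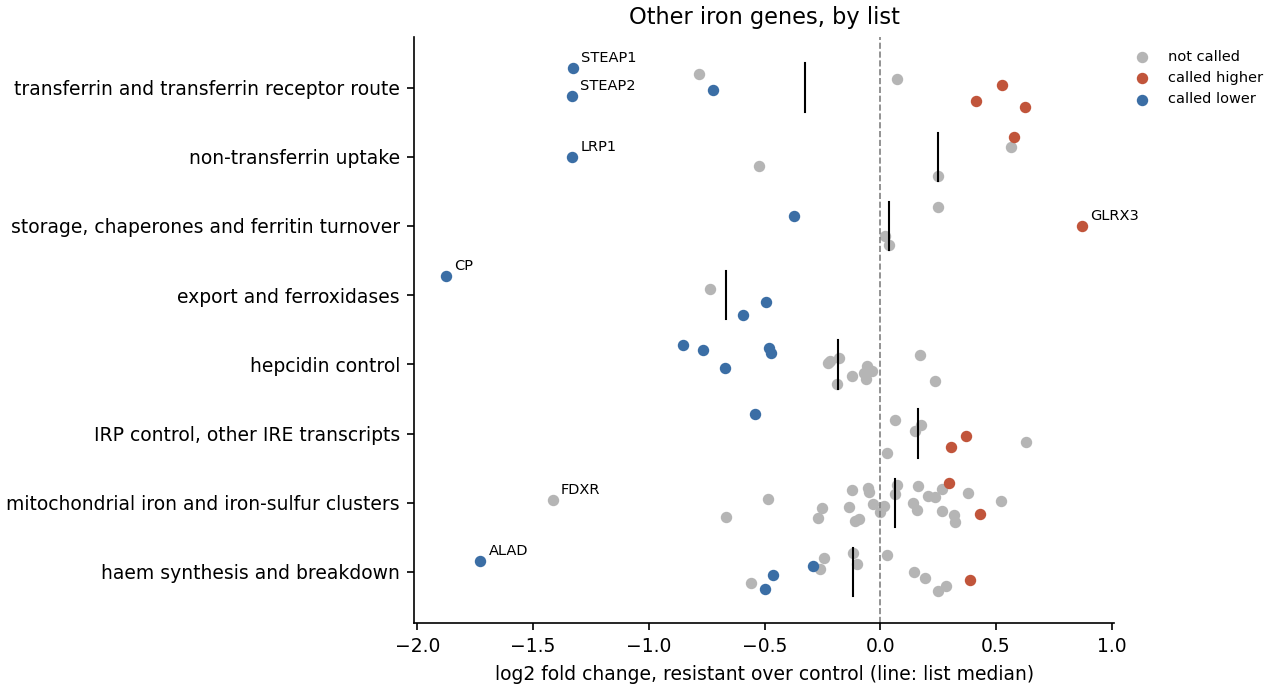
log2FC, resistant over control, of the 90 tested genes of the 8 other iron lists; each point is a gene, colour gives its call in edgeR, and the short line is the median of the list. CP (-1.88), ALAD (-1.73), STEAP2, LRP1 and STEAP1 (-1.33 each) are the called genes that lie furthest to the left, and 2 of 29 mitochondrial genes are called.

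Genes around SLC40A1 had no common direction. In GENCODE 29 (GRCh38, a build that may differ from that of the counts) SLC40A1, Entrez 30061, spans bases 189560579 to 189583758 of chromosome 2, on the minus strand. The other members are spread over the genome. TF (133745956 to 133796640, plus strand) and TFRC (196027183 to 196082189, minus strand) share chromosome 3, and HAMP (35280716 to 35285143) and FTL (48965301 to 48966878), both on the plus strand, share chromosome 19. ACO1 lies on chromosome 9 (32384603 to 32454769, plus strand), NCOA4 on 10 (46005088 to 46030714, minus), FTH1 on 11 (61959718 to 61967660, minus), SLC11A2 on 12 (50979401 to 51028566, minus) and IREB2 on 15 (78437431 to 78501456, plus). Within 1 Mb on either side of SLC40A1 12 other genes were tested. Of these 2 were called higher (INPP1 and MFSD6) and 2 lower (COL5A2 and ASNSD1), beside 11.7% and 12.3% of all tested genes. The 12 neighbours had a median log2FC of 0.05 and a lowest value of -0.63. Over the 6 libraries, the genes whose log2 CPM followed SLC40A1 most closely among 10117 with at least 5 CPM in a group were GLA, NCOA7, MDFIC, IGFBP1 and UBE2Q1, with Pearson correlations of 0.997 to 0.999. Such values are common with 6 libraries in 2 groups, and 309 genes exceeded 0.95. Of these 5, IGFBP1, a liver-secreted binding protein of insulin-like growth factors, had the largest log2FC in size, at -1.79 (289 ± 22.8 and 83.4 ± 1.68 CPM).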

How the data were processed

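Per the labels, total RNA from 3 control and 3 resistant MHCC97H libraries was sequenced. Trimmomatic, HISAT2 and Bowtie2 are named in the submitters' processing notes. The counter, build, annotation and strand use are not given in those notes or in the labels used here. The authors deposited whole-number counts per gene symbol, not normalized, and the 6 single-library files equalled the series table. Even numbers made up 63.6 to 69.1% of non-zero counts, so halved counts were tried as an alternative. After halving, replicate pairs had chi-squares of 1.78 to 2.86 per degree of freedom and were kept as separate libraries.

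The fit was made in edgeR 4.0.16 (R 4.3.3): filterByExpr left 10804 genes, TMM gave the scaling, and group entered the quasi-likelihood model alone. Benjamini-Hochberg adjustment ran over those genes, and a call is an adjusted p under 0.05. The SE is the log2 fold change over the square root of F, and 95% intervals use the total degrees of freedom of the fit. The fits were tested on simulated data. As alternatives, the scaling was changed (library totals, RLE, upper quartile), the tool (DESeq2 1.42.0; limma-voom in limma 3.58.1), the filter (2 others), and there were a replicate block, halved counts and leaving out each library. The joint omission of control replicate 1 and resistant replicate 3, and coding lengths, were added after the data were seen. Members and lists were chosen with earlier results of these data known. All members were named, and of each list up to 4 called genes by smallest p with the most abundant gene not called. Also named were the genes most correlated with SLC40A1 and the leading marker of each other cell type. Any other gene given with values was chosen after these were seen. Lengths, spans and transcripts are from GENCODE 29, which held 19133 of the table's genes. Plots used matplotlib 3.10.9.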

Additional observations from a re-analysis of the deposited data

How the results depend on the processing

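SLC40A1, chosen with its difference known, was lower in all 16 alternatives, which used the same libraries. The count of members called higher, 1, was 0 with library totals and in DESeq2 and ran from 0 to 1 on leaving out 1 library. The count called lower, 1 with SLC40A1 included, was 2 with limma-voom, the replicate block and halved counts, and ran from 1 to 2 on leaving out 1 library. The other iron genes called higher, 10, were 4 without both control replicate 1 and resistant replicate 3, and 6 to 9 on leaving out 1 library, where the lower ones numbered 13 to 18. FTL over FTH1 was 15.1 in control and 15.5 in resistant cells with the longest transcript, 11.3 and 11.6 with the coding length, and 10.8 and 11.1 with no length. Among genes not called, the sign of the log2FC changed for TFRC (0.0045 without both those libraries; -0.063 to 0.022 on leaving out 1), IREB2 (-0.0039 with library totals; -0.00019 to 0.065), SNX3 (-0.10 to 0.21) and TAX1BP1 (-0.0024 with library totals; -0.066 to 0.084). The cause of these changes was not tested. The replicate block gave 1248 genes higher and 1270 lower, beside 1269 and 1332. Same-numbered libraries correlated at -0.02 to 0.03 in their deviations from the group means, and 2 of 6 libraries correlated best with their own number, so the numbers were not taken to pair them. HAMP, with 11 and 16 counts, was too shallow for a comparison.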
